A study of Mus musculus with 6 samples.

Results

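The histone genes examined here are those whose symbols belong to the H1f, H2ac, H2bc, H3c and H4c series, the renamed forms of Hist1h, Hist2h, Hist3h and Hist4. They were chosen by symbol alone, and 30 of the 19938 genes measured by a probe set of their own met the rule. They comprised 8 linker histone H1 genes, 4 H2A genes, 9 H2B genes, 3 H3 genes and 6 H4 genes. A further 36 histone genes were named only in rows whose probes fit several genes, and these rows are described apart. The rule matched names, not regulation. Of the 30 genes, 24 are somatic replication-dependent genes, 3 are testis forms of the same clusters (H1f6, H2ac1 and H2bc1), and 3 are H1 genes known as replication-independent or germ cell forms (H1f7, H1f8 and H1f10).

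Histones H2A, H2B, H3 and H4 form the protein core around which DNA is wound, and H1 binds the linker DNA between cores. Replication-dependent histone genes lie in clusters, have no introns, and are transcribed mainly while DNA is copied, so that new DNA can be packaged. Their mRNAs end in a stem-loop bound by the protein SLBP in place of the usual poly(A) tail, and they are degraded when DNA synthesis stops. Their RNA level is therefore commonly read with that of other S phase genes.

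Affymetrix arrays were run on sorted bone marrow cells in 3 samples labelled p65 wild-type and 3 labelled p65 knockout, with 1 array each. The titles number the samples of each genotype 1 to 3 but do not say whether a sample is 1 animal or a pool, so p-values measure the spread between samples. The p65 protein, RelA, is one of the DNA-binding subunits of NF-κB, and the series title places its deletion in the hematopoietic compartment. The driver of the deletion and the age and sex of the mice are not given in the sources used here. All 6 samples were sorted as lacking lineage markers and Flk2 and carrying c-kit and Sca-1, which selects blood stem cells and the earliest progenitors. The labels mention no treatment. The question is whether histone transcripts differ between the genotypes in these cells. Values are log2 signals, a difference of 1 is a doubling, and every fold change is knockout over wild-type. Genes were called changed at an adjusted p under 0.05 in limma, a linear model with variances moderated across genes, with Benjamini-Hochberg adjustment over all 19938 genes.

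Several features of the arrays bear on every result below. Wild-type replicate 1 stood apart, with the narrowest signal range (SD 2.03 against 2.22 to 2.29 in the other 5 arrays). Signal range also went with genotype, since the wild-type SDs were 2.03 to 2.22 and the knockout SDs 2.26 to 2.29. Of 14 myeloid precursor markers 12 rose in knockout, when 0.687% of all genes rose and 0.13% fell. The list's mean signal was 6.88 to 7.08 in wild-type and 8.94 to 9.28 in knockout arrays. One member, S100a9, went the other way (-0.71, limma adjusted p = 0.227), with knockout values below all wild-type values. Of 14 measured stem cell markers 1 fell, the transcription factor gene Hlf, by 1.27 (limma adjusted p = 0.0485, over 16 alternatives 0.00685 to 0.271). That list had a median log2 fold change of -0.49, with 2 positive and 12 negative. Knockout values lay below all wild-type values in 8 of its members, as in 15.4% of all genes. With replicate number as a block 3 members fell, as did 90 of all 19938 genes. The counts without wild-type replicate 1 were 8 and 276. In the same list Cd48 went the other way, at 0.97 (limma adjusted p = 0.0544). It rose with the block (limma adjusted p = 0.0298) and without wild-type replicate 1 (0.0185). Of 12 measured lineage markers 0 passed, with means of 5.49 to 5.84 in wild-type and 5.37 to 5.48 in knockout arrays. Of 10 erythroid markers 0 passed, of 12 stroma and endothelium markers 0 passed, and of 13 lymphocyte markers 1 rose, the cytotoxic granule gene Nkg7 (1.09). The lymphocyte list had a median of 0.09, with 8 positive and 5 negative. Knockout values lay below all wild-type values in 3 of its members and above them in 1. Among them Cd3d (-0.57, limma adjusted p = 0.0925) fell without wild-type replicate 1 (-0.55, limma adjusted p = 0.0492). The erythroid list had a median of 0.47, with 7 positive and 3 negative. Its member Tfrc (1.45, limma adjusted p = 0.0925) passed with replicate number as a block and without wild-type replicate 1. The stroma and endothelium list had a median of -0.14, with 3 positive and 9 negative, and Emcn (-1.48, limma adjusted p = 0.0896) passed with the block. The part of these shifts in the histone results was not tested, and in bulk samples a change in the share of a cell type and a change in RNA per cell cannot be told apart. Of the genes behind the sort, Kit (c-kit) had a log2 fold change of -0.30 and Flt3 (Flk2) of 0.06, neither past the threshold, and the Sca-1 gene Ly6a was not analysed here. Kit was -0.48 without wild-type replicate 1 and -0.45 with array weights and passed in both (limma adjusted p from 0.0465 to 0.688 over 16 alternatives). Listed with them, though not used in the sort, Cd34 was at 0.04 and the blood cell gene Ptprc at 0.20. The signs of Flt3, Cd34 and Ptprc turned under quantile and cyclic loess normalization. The p65 gene Rela read 7.52, 7.89 and 7.92 in the wild-type arrays against 7.33, 7.48 and 7.35 in the knockouts, a difference of -0.39 short of the threshold (limma adjusted p = 0.209). Over 16 alternatives the Rela difference ran from -0.61 to -0.24 and passed in 3 (limma adjusted p 0.0292 to 0.486). Its knockout values lay below all wild-type values. Where the Rela probes lie against the deleted stretch is not known here, and why signal remained in the knockout arrays was not tested.

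Promoters of 4 members are shown because the results turn on them. H2ac4 is the gene that changed, H2bc3 is its neighbour that did not pass, and H1f5 and H4c3 are the next members by p. Each stretch is the 250 bases before the transcription start, 5′ to 3′ on the gene's own strand, from RefSeq on the mouse assembly GRCm38.p6. Capitals mark matches on either strand to TATAAA (the TATA box), CCAAT (or ATTGG on the other strand), the octamer ATTTGCAT (or ATGCAAAT), bound by Oct factors and known from H2B promoters, and AAACACA, an element known from H1 promoters.
H2ac4 promoter, chr13:23750838-23751087, plus strand: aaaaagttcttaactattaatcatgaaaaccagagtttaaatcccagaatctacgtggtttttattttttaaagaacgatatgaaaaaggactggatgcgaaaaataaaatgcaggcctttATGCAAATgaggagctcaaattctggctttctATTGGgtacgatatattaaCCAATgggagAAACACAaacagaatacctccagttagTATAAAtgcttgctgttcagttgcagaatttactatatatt
H2bc3 promoter, chr13:23746484-23746733, plus strand: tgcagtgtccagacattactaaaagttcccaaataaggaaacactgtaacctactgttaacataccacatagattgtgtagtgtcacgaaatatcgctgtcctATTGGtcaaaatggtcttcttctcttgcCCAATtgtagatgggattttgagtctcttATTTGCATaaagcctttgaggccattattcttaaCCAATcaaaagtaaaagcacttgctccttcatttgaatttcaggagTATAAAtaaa
H1f5 promoter, chr13:21780626-21780875, minus strand: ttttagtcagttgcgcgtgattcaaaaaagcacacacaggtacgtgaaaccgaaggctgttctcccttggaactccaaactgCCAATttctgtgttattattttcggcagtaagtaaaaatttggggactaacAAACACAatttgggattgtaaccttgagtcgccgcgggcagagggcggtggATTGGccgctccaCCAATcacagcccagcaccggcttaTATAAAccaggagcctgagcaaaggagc
H4c3 promoter, chr13:23698459-23698708, minus strand: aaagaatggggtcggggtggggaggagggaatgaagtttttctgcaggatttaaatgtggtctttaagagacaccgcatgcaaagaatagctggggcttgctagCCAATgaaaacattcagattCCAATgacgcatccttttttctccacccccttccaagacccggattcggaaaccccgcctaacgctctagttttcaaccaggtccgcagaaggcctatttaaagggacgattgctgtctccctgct

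All 4 stretches held a CCAAT, while TATAAA was present in H2ac4, H2bc3 and H1f5 but not in H4c3. The octamer was in H2ac4, 129 to 122 bases before the start, and in H2bc3, 90 to 83 bases before it. Of the 30 genes 26 had a promoter entry, those without one being H2bc4, H2bc21, H3c7 and H4c14. Among these 26, TATAAA occurred in 14 (53.8%) against 12.4% of all 32851 promoters of the same length, and CCAAT in 20 (76.9%) against 33.8%. The octamer occurred in 8 (30.8%) against 1.6%, and all 8 were H2A or H2B genes (3 of 4 and 5 of 7). AAACACA occurred in 8 (30.8%) against 6.25%, including 4 of 8 H1 genes. Matches in H2ac8 and H2bc8, and in H2ac1 and H2bc1, mirror each other on opposite strands, because the stretches of these neighbours overlap. The same element was then counted for both genes, so these counts are of genes and not of separate elements. The κB motif, the sequence NF-κB proteins bind, matched 0 of the 26 against 7.25% of all promoters, which says only that its letters are not in this window. The median log2 fold change was 0.22 in genes with TATAAA and 0.25 in those without, 0.22 and 0.27 for CCAAT, 0.18 and 0.23 for the octamer, and 0.09 and 0.25 for AAACACA. These medians describe small, overlapping sets of genes.

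Of the 30 histone genes 1 rose, H2ac4, 0 fell, and 29 did not pass. Of the genes as a whole, 0.687% rose and 0.13% fell, 0.818% in all. With replicate number as a block H2ac4 alone passed as well, when 1.41% of all genes rose. Positive log2 fold changes were found for 24 histone genes, against 45.9% of all genes, and the median was 0.23, against -0.04 over all genes. All 3 knockout values lay above all 3 wild-type values in 12 of the 30 genes (19.2% of all genes did so), below them in 2 (15.4%), and the groups overlapped in 16. The number of positive genes was 21 to 27 under quantile, cyclic loess and median scaling. At an unadjusted p under 0.05, 8 were higher (13.8% of all genes) and 1 was lower (7.76%). Array by array, the mean of the 30 genes after centring each gene over the 6 arrays was -0.17, -0.05 and -0.14 in wild-type, against 0.15, 0.09 and 0.12 in knockout arrays. Without wild-type replicate 1 the median was 0.14, and 4 genes passed (H1f5, H2ac4, H2ac15 and H4c3), when 3.28% of all genes rose.

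**Figure D1:**
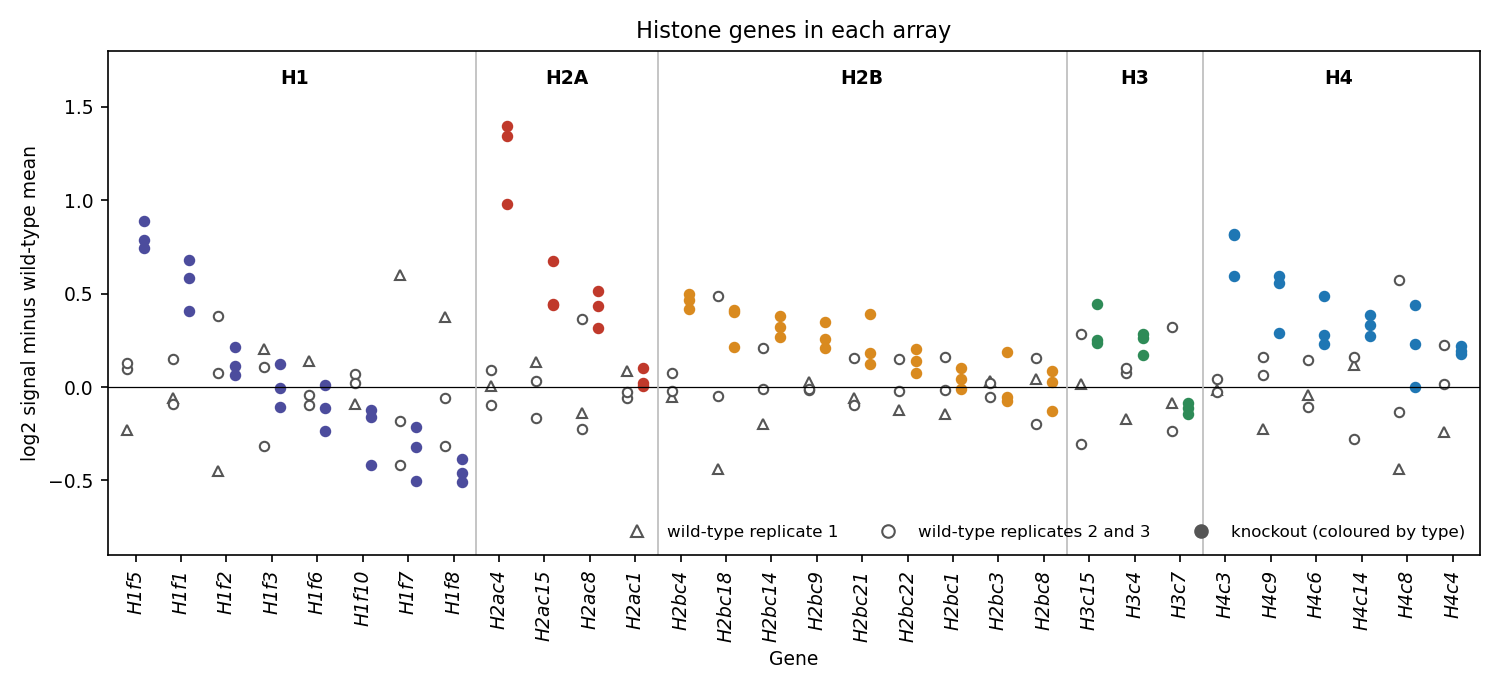
Log2 signal of each of the 30 histone genes in each array, minus the gene's wild-type mean, grouped by histone type; triangles are wild-type replicate 1, open circles the other wild-type arrays and filled circles the knockout arrays. H2ac4 has the largest gap between the groups, with knockout arrays at 9.58 to 10.001 against 8.51 to 8.69 in wild-type, and the groups overlap in 16 of the 30 genes.

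Most of these genes were bright, and in these arrays bright genes as a whole read higher in knockout. Genes were split into 3 groups of equal size by mean signal. The median log2 fold change of all genes was -0.22 in the dimmest group, -0.09 in the middle one and 0.30 in the brightest. Of the histone genes 19 fell in the brightest group, with a median of 0.33, which lies close to the 0.30 of all 6646 genes there. In that group 17 of the 19 had a positive log2 fold change (86.7% of all bright genes), 11 had knockout values above all wild-type values (43.9%), and 1 passed (1.26%). The 6 dimmest members had a median of -0.05 and the 5 in the middle group a median of 0.04. The share of positive signs and the median of the bright histone genes were thus near those of bright genes in general with all 6 arrays. Without wild-type replicate 1 they were further apart, with a median of 0.29 and 17 of 19 positive (89.5%) for the histone genes, against 0.13 and 70.2% for all bright genes. After cyclic loess normalization, which evens out such trends, the medians were 0.12 for the 19 genes and 0.04 for all bright genes, and after quantile normalization 0.19 and 0.10.

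**Figure D2:**
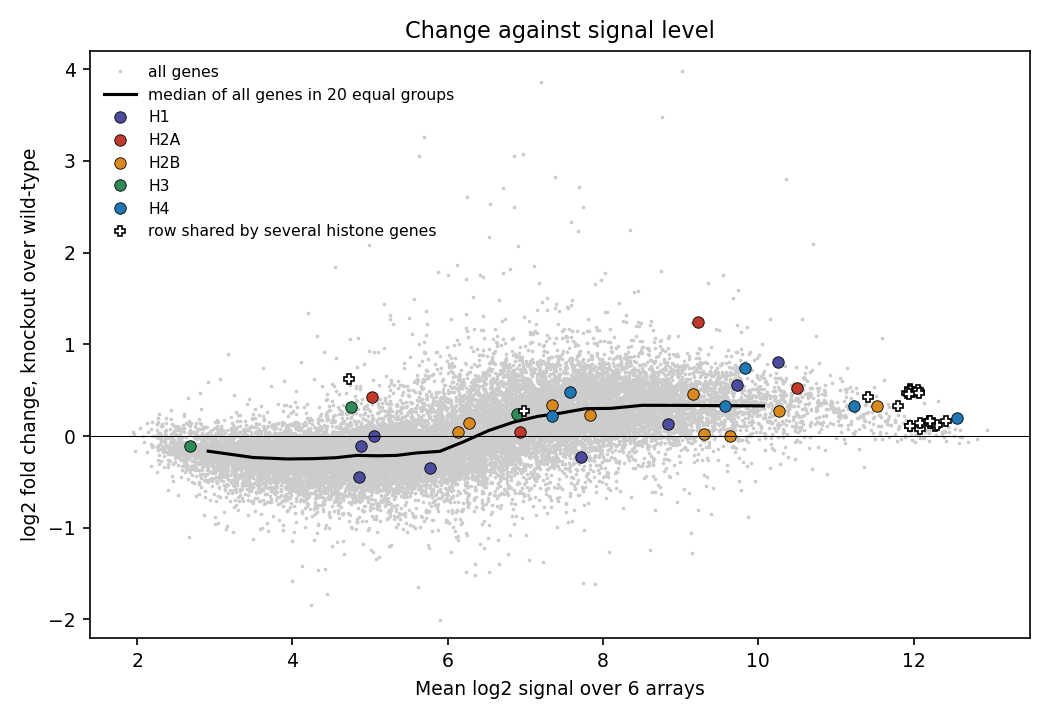
Log2 fold change against mean log2 signal over the 6 arrays for all genes (grey), the 30 histone genes (coloured by type) and the rows shared by several histone genes (crosses); the line is the median of all genes in 20 groups of equal size. The line climbs from negative to positive with signal, and most bright histone genes lie along it, with H2ac4 at 1.24 well above it.

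Among the H2A genes, whose protein pairs with H2B in the core, H2ac4 (formerly Hist1h2ab) rose. It read 8.61, 8.69 and 8.51 in wild-type arrays (8.60 ± 0.09, SD, n = 3) and 10.001, 9.58 and 9.95 in knockout arrays (9.84 ± 0.23, SD, n = 3). The groups did not overlap, and the lowest knockout array stood well above the highest wild-type one. The log2 fold change was 1.24 (SE 0.16, 95% interval 0.88 to 1.61), or 2.36-fold, with a limma adjusted p of 0.0199. A two-sided exact permutation test of this gene alone returned p = 0.1, the lowest possible with 3 arrays in each group. Over 16 alternatives the log2 fold change ran from 0.94 to 1.39 and the limma adjusted p from 0.00313 to 0.152, and the gene passed in 9. It did not pass without knockout replicate 1 (1.16, adjusted p = 0.152), knockout replicate 2 (1.37, 0.0598), knockout replicate 3 (1.19, 0.138) or wild-type replicate 3 (1.19, 0.0783), nor under quantile (0.98, 0.0624) or cyclic loess normalization (0.94, 0.0571), nor with every row tested (1.24, 0.0984).

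The other H2A genes did not pass. H2ac15 read 10.37, 10.07 and 10.27 in wild-type, against 10.92, 10.68 and 10.69 in knockout arrays, without overlap, a log2 fold change of 0.52 (SE 0.15, limma adjusted p = 0.125). Without wild-type replicate 1 it was 0.59 and passed (limma adjusted p = 0.0462, over 16 alternatives 0.0287 to 0.424). H2ac8 was dim, at 4.67, 5.17 and 4.58 in wild-type against 5.32, 5.24 and 5.13 in the knockout arrays (log2 fold change 0.42, limma adjusted p = 0.228). Its groups overlapped, since wild-type replicate 2 lay above the lowest knockout value. H2ac1, the testis form, had a log2 fold change of 0.04, and its sign turned under quantile and cyclic loess normalization.

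Of the 9 H2B genes 0 passed, and their median was 0.23 (0.12 without wild-type replicate 1). H2bc4 had the smallest p of them, at 8.88, 9.01 and 8.91 in wild-type, against 9.35, 9.40 and 9.43 in knockout arrays. Its groups were separated and each was tight, with a log2 fold change of 0.46 (SE 0.13, limma adjusted p = 0.120). Knockout values also lay above all wild-type values in H2bc14 (log2 fold change 0.32) and H2bc9 (0.27), both with a limma adjusted p near 0.25 (0.251 and 0.252). H2bc18, H2bc21 and H2bc22 had log2 fold changes of 0.34, 0.23 and 0.14 with overlapping groups, and the testis form H2bc1 of 0.04. H2bc3 and H2bc8 were bright genes with log2 fold changes of 0.02 and 0.00, the first with a 95% interval of -0.30 to 0.33 and the second of -0.35 to 0.34. Quantile and cyclic loess normalization put H2bc3 at -0.24 and -0.28, and the latter turned the sign of H2bc21 too.

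H3 and H4 pair as the centre of the core. The 3 H3 genes with rows of their own did not pass. H3c4 read 6.60, 6.85 and 6.88 in wild-type, against 7.03, 7.06 and 6.94 in knockout arrays, a separated pair of groups with a log2 fold change of 0.24 (SE 0.14, limma adjusted p = 0.327). H3c15 was dim, with a log2 fold change of 0.31 and overlapping groups. H3c7 (-0.11) read 3.06 at most in any array, its groups overlapped, and its sign turned when arrays were centred on their medians. The table gives no detection call, so whether it lay above background is not known here.

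All 6 H4 genes had positive log2 fold changes, with a median of 0.33 (0.34 without wild-type replicate 1), and 0 passed. All 6 were in the brightest group, where 86.7% of genes were positive and 43.9% had knockout values above all wild-type values. The median of that group was 0.30 (0.13 without wild-type replicate 1). After cyclic loess normalization the medians were 0.097 for H4 and 0.04 for all bright genes. H4c3 read 9.44, 9.44 and 9.51 in wild-type, against 10.28, 10.06 and 10.28 in knockout arrays. The groups were far apart against their spread, with a log2 fold change of 0.74 (SE 0.13) that just missed the threshold (limma adjusted p = 0.0531). Without wild-type replicate 1 it stayed at 0.74 and passed (limma adjusted p = 0.0247, over 16 alternatives 0.00962 to 0.301). H4c9 (0.48), H4c6 (0.33) and H4c14 (0.33) also had knockout values above all wild-type values. H4c8 (0.22) and H4c4 (0.20) overlapped, and H4c8 was 0.00 without wild-type replicate 1, in which it read 6.79 against 7.10 to 7.80 in the other wild-type arrays.

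The 8 H1 genes had log2 fold changes of both signs, with a median of -0.05 that turned to 0.09 when arrays were centred on their medians. H1f5 read 9.62, 9.95 and 9.98 in wild-type, against 10.74, 10.60 and 10.64 in knockout arrays, without overlap. Its log2 fold change of 0.81 (SE 0.15) did not pass (limma adjusted p = 0.0569). Without wild-type replicate 1 it was 0.69 and passed (limma adjusted p = 0.0215, over 16 alternatives 0.00804 to 0.286). H1f1 read 9.39, 9.36 and 9.60 against 10.13, 9.85 and 10.03, also without overlap (0.56, limma adjusted p = 0.108). H1f2 (0.13) and H1f3 (0.00) overlapped, and H1f2 turned to -0.10 without wild-type replicate 1. The 3 replication-independent forms were negative in these values and under each scaling run, with H1f10 at -0.23, H1f7 at -0.35 and H1f8 at -0.45 (limma adjusted p = 0.342, 0.408 and 0.220). Knockout values lay below all wild-type values in H1f10 and H1f8, but H1f7 and H1f8 were highest in wild-type replicate 1 and shrank to -0.05 and -0.26 without it. The testis form H1f6 was at -0.11, and its sign turned under all 3 scalings.

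**Figure D3:**
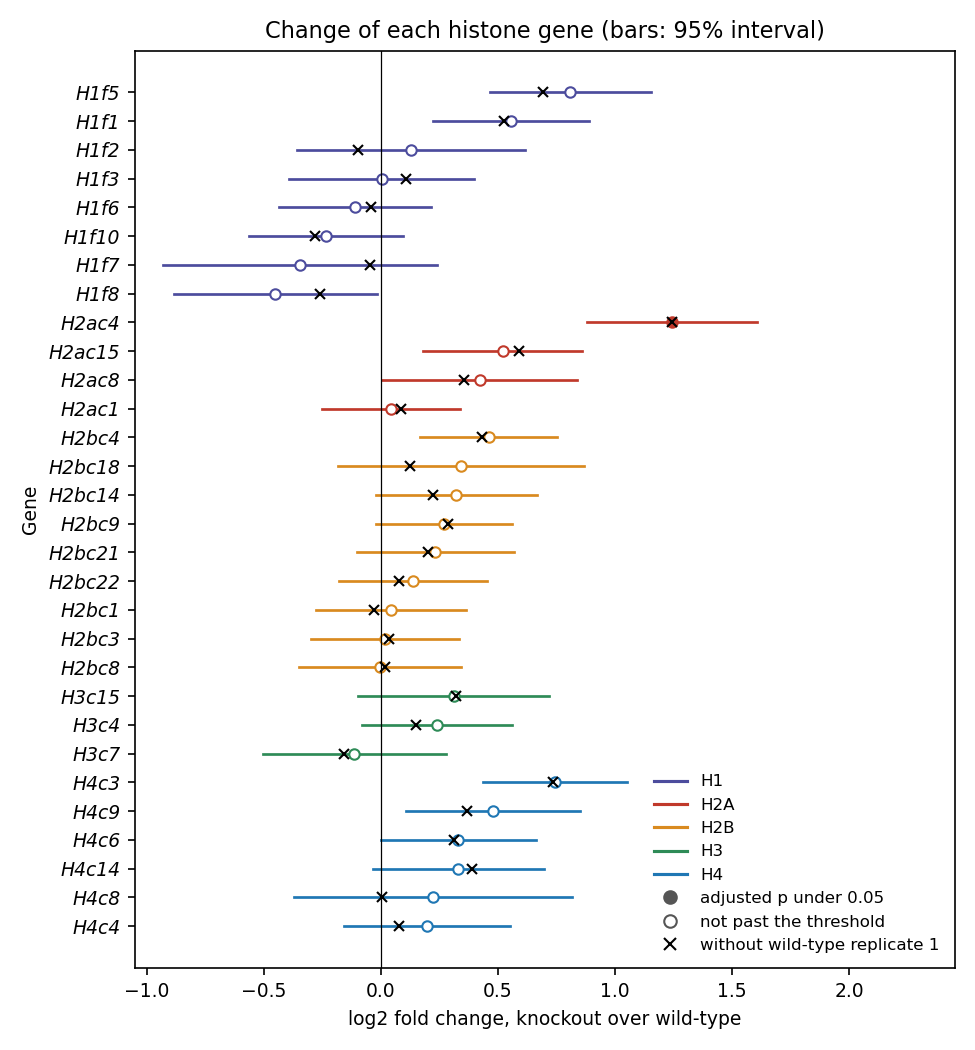
Log2 fold change of each histone gene with its 95% interval from limma, grouped by type; filled circles passed the threshold and crosses give the value without wild-type replicate 1. Only H2ac4 (1.24, interval 0.88 to 1.61) is filled, H1f5 (0.81) and H4c3 (0.74) come next, and the intervals of H2bc3 and H2bc8 are centred near 0.

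Taking the 24 somatic genes alone, a set chosen after the values were seen, 22 were positive, 12 had knockout values above all wild-type values, 1 passed, and the median was 0.32. Of all genes 45.9% were positive, 19.2% had knockout values above all wild-type values and 0.818% passed. Most of the 24 were bright, and of all bright genes 86.7% were positive and 43.9% were separated in this way, with a median of 0.30. The 3 testis forms had a median of 0.04 and the 3 replication-independent H1 genes a median of -0.35. By type, the somatic H1, H2A and H2B genes had medians of 0.34, 0.52 and 0.25. Former Hist3 and Hist4 genes that now carry other names lie outside the rule. H2aw was at 0.49 and H4f16 at 0.32, both with knockout values above all wild-type values, and H2bu2 at -0.10, with limma adjusted p-values of 0.146, 0.252 and 0.670.

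The log2 fold changes of 3 neighbouring H2A and H2B pairs were compared, in a design whose exact p cannot go below 0.1. The widest difference was in the pair that holds H2ac4. H2ac4 follows H2bc3 in RefSeq gene order, and the difference between their log2 fold changes was 1.22. Within each array H2ac4 minus H2bc3 was -0.81 to -0.55 in wild-type and 0.36 to 0.76 in knockout arrays, without overlap. In a two-sided exact permutation test this difference had p = 0.1, the smallest possible, and 0.3 after Benjamini-Hochberg adjustment over the 3 pairs. For H2ac8 and H2bc8 the difference was 0.43 (exact p = 0.4, adjusted 0.6), and for the testis pair H2ac1 and H2bc1 it was 0.00 (exact p = 1, adjusted 1). Along chromosome 13 the longest stretch of listed histone genes held 16 measured members, of which 13 were positive, and ran from -0.11 to 1.24 with a median of 0.23. The stretch with H2bc14, H2ac15, H1f5 and H2bc22 had 4 positive of 4 and a median of 0.42. The 4 measured genes of chromosome 3 lay close together, from 0.23 to 0.34.

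**Figure D4:**
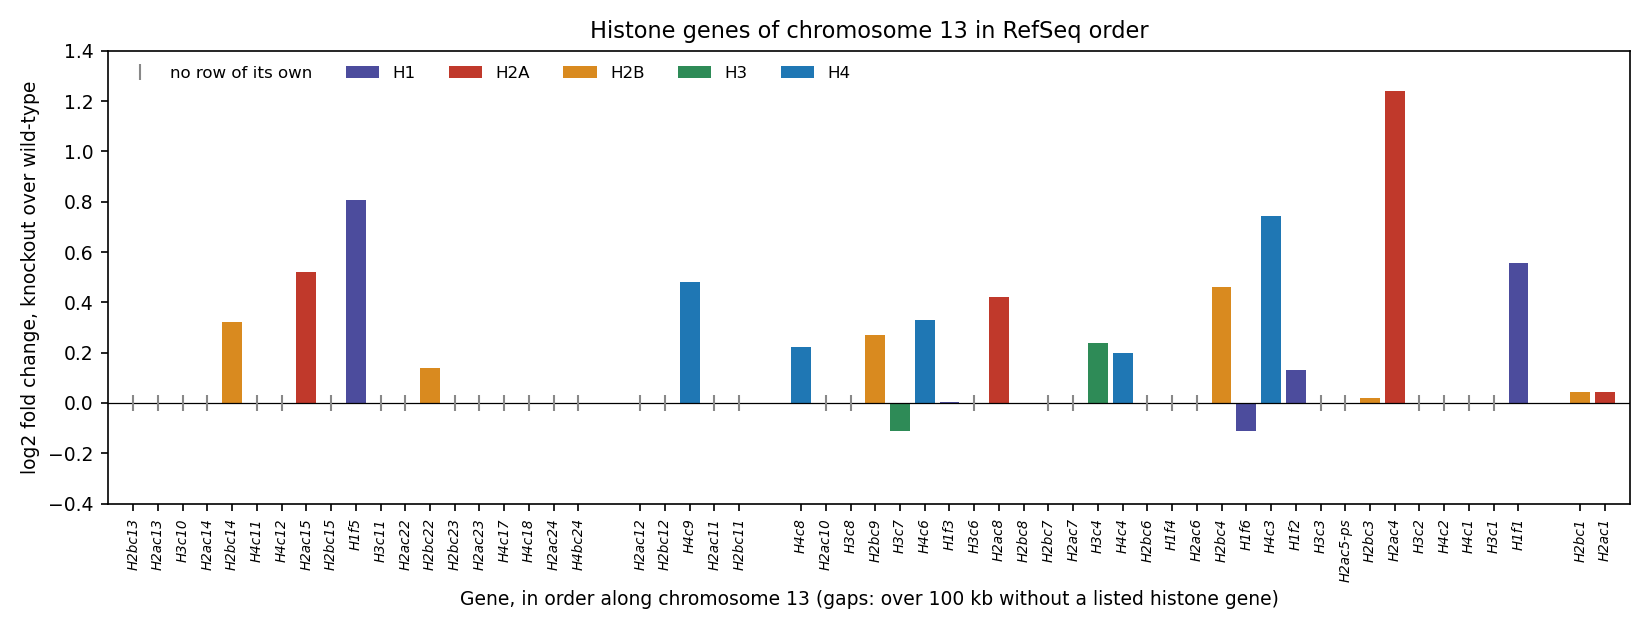
Log2 fold change of the histone genes of chromosome 13 in RefSeq order, as bars coloured by type, with grey ticks for listed genes that have no row of their own; spacing shows order, not distance, and wider gaps stand for over 100000 bases without a listed histone gene. H2ac4 (1.24) stands beside H2bc3 (0.02), and positive bars are spread over the stretches.

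Most core histone genes are so alike that their probes cannot separate them. The table held 26 rows naming several histone genes, with 54 symbols in all that meet the rule, fitted with all 35557 rows. Of these rows 2, an H2B and an H4 row, repeat another row's values exactly. Of the 26 rows 0 passed limma (0.0619% of all rows did), and 0 passed without wild-type replicate 1 (0.0478%) or under any other alternative run on them, and at an unadjusted p under 0.05 there were 2 H2A rows, 8 H3 rows and the row of H4c11 and H4c17 (10.4% of all rows were higher at that level). The 10 shared H3 rows had log2 fold changes of 0.46 to 0.51, the lowest limma adjusted p being 0.270. Their median signal was 11.41, 12.07 and 11.68 in wild-type, against 12.20, 12.18 and 12.23 in knockout arrays. Knockout arrays lay above all wild-type arrays in all 10, but wild-type replicate 2 came near them, and without wild-type replicate 1 the range was 0.28 to 0.35. These rows read largely the same transcripts and are not 10 independent measurements.

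The 2 shared H2A rows had log2 fold changes of 0.33 and 0.42 (lowest limma adjusted p 0.221), and of 0.30 and 0.40 without wild-type replicate 1. Both name H2ac4, H2ac8 and H2ac15, which also have rows of their own, and H2ax and H3c4, so they are not separate from those genes. The 7 shared H2B rows, 6 of them distinct, were at 0.08 to 0.14 (0.501), and the 5 shared H4 rows, 4 of them distinct, at 0.14 to 0.17 (0.483). Over 14 alternatives the median of the H2B rows ran from -0.04 to 0.26 and that of the H4 rows from 0.02 to 0.31. The median of the H2A rows ran from 0.19 to 0.52 and that of the H3 rows from 0.32 to 0.66. Knockout values lay above all wild-type values in each of these H2A, H2B, H3 and H4 rows in the deposited values, as in 16.4% of all rows. These rows were bright, and of the brightest group of genes 43.9% were separated in this way. The median log2 fold change of that group was 0.30, and 0.13 without wild-type replicate 1. The H4 rows read 11.98, 12.23 and 12.17 in wild-type, against 12.27, 12.29 and 12.27 in knockout arrays at the median, so the lowest reading was again wild-type replicate 1. Without it the H4 range was 0.07 to 0.09. The row of H4c11 and H4c17 was dim, at 0.63 (limma adjusted p = 0.265), and that of H2bc6 and H1f4 was at 0.27 with overlapping groups.

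**Figure D5:**
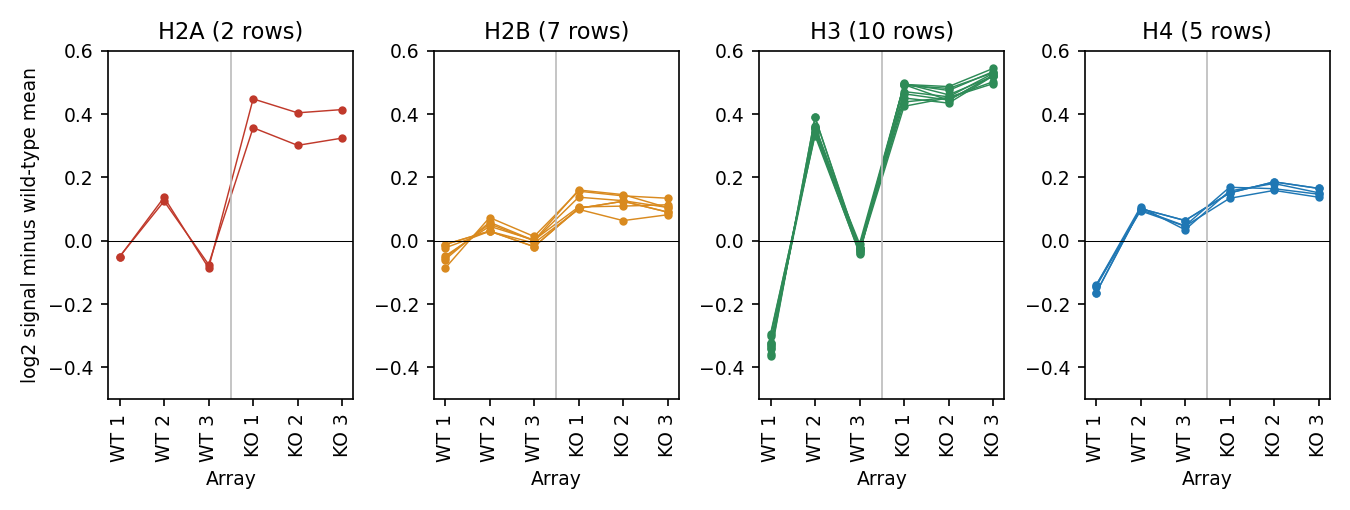
Log2 signal of the rows shared by several histone genes in each array, minus each row's wild-type mean, in 4 panels by type; each line is 1 row, WT is wild-type and KO knockout. In each row shown the knockout points lie above that row's wild-type points, with steps of 0.46 to 0.51 for H3, 0.33 to 0.42 for H2A, 0.08 to 0.14 for H2B and 0.14 to 0.17 for H4. Without wild-type replicate 1 the H3 rows (0.28 to 0.35) and the H2A rows (0.30 to 0.40) overlap.

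Genes that make, carry or accompany histones were read from lists in the same fit. Most of them were bright, so their counts stand beside those of bright genes, of which 86.7% were positive and 43.9% had knockout values above all wild-type values, with a median of 0.30 (0.13 without wild-type replicate 1). Over all genes the shares were 45.9% and 19.2%. The brightest group held 27 of the 33 genes of the first list below, 24 of 26 chaperone and import genes, 9 of 11 S phase entry genes, 43 of 44 DNA synthesis genes and 7 of 12 replication-independent histone genes. Of 33 measured genes of histone pre-mRNA processing and transcription 0 passed, 32 were positive, and the median log2 fold change was 0.33 (0.13 without wild-type replicate 1). After cyclic loess normalization 21 were positive and the median was 0.09. The share of positive genes and the median are near those of bright genes. Slbp, which encodes the stem-loop binding protein, read 8.05, 8.54 and 8.39 in wild-type, against 8.89, 8.98 and 9.12 in knockout arrays, a separated 0.67 (limma adjusted p = 0.0974). Ncbp2, the gene of the small cap-binding subunit, was at 0.64 (0.0717), and Clp1, the gene of a pre-mRNA cleavage factor kinase, at 0.67 (0.0827). Npat, the gene of the cyclin E-CDK2 substrate that activates histone genes, was at 0.30 (0.384), and Casp8ap2, the gene of its partner FLASH, at 0.49 (0.169).

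Of 26 measured chaperone and import genes 0 passed, 26 were positive and the median was 0.26 (0.12 without wild-type replicate 1). After cyclic loess normalization 14 were positive and the median was 0.01, and with all arrays the list's median lay below that of bright genes. They include Nasp, the H3 and H4 chaperone gene (0.42, limma adjusted p = 0.170), Hat1, the gene of the enzyme that acetylates new H4 (0.61, 0.104), and Anp32e, the H2A.Z chaperone gene (0.55, 0.153). Of 11 cyclin E-CDK2 and S phase entry genes 0 passed, 9 were positive and the median was 0.40 (0.20 without wild-type replicate 1). Ccna2, the cyclin A2 gene, was at 0.92 (limma adjusted p = 0.0861, and 0.0488 with replicate number as a block), and Ccne1, the cyclin E1 gene, at 0.71 (0.0935). Of 44 DNA synthesis genes 1 rose, Rrm2, which encodes a ribonucleotide reductase subunit (1.03, limma adjusted p = 0.0476, over 16 alternatives 0.00362 to 0.263). The list had 43 positive, 32 with knockout values above all wild-type values and a median of 0.51 (0.33 without wild-type replicate 1, and 0.21 with 36 positive after cyclic loess normalization). Of bright genes as a whole 86.7% were positive and 43.9% were separated in this way, with a median of 0.30. Fen1, the flap endonuclease gene, followed at 0.83 (limma adjusted p = 0.0515).

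Of 12 measured genes of replication-independent histones, among them H1f7, H1f8 and H1f10, 1 rose. This was Cenpa, the centromeric H3 variant gene, at 0.91 (limma adjusted p = 0.0476, over 16 alternatives 0.0086 to 0.272). H2ax, the gene of the variant marked at DNA breaks, was at 0.63 (0.151) and H2aj at 0.45 (0.139). The list's median was 0.21, with 7 positive and 5 negative, and it was 0.13 without wild-type replicate 1 and -0.02, with 5 positive, after cyclic loess normalization.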

How the data were processed

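The deposited table gives the authors' log2 signals of 6 arrays. Per the submitters' processing notes RMA, Affymetrix Expression Console and Partek were used, with no versions. Per the labels' protocols, RNA came from a Qiagen RNeasy extraction and was amplified with a NuGEN whole-transcriptome system, which can change signal range between samples. The design text names an exon array while the annotation is that of a gene array, and this was not settled. Of 35557 rows, 21789 have 1 symbol, 1621 several and 12147 none listed. The single-symbol row with the highest mean was kept per gene, giving 19938 genes, and each of the 30 histone genes had 1 row. Several-symbol rows were fitted apart with all rows.

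Groups (3 against 3) come from the sample titles, which do not say whether a sample is 1 animal or a pool. limma 3.58.1 in R 4.3.3 was fitted with group alone, on 4 residual degrees of freedom, two-sided. The number of arrays limits precision. Named genes are members past the threshold, the 3 brightest and 3 smallest-p genes per type, list members past the threshold or with the 2 smallest p, and the sort genes. Values of further members were added after they were seen. Members and lists were chosen with earlier results of these data known. Same-numbered arrays deviated together (correlations 0.368, 0.119 and 0.162, all over 0.1), while differently numbered arrays 2 and 3 did as much (0.183 and 0.195). Promoter motifs were counted on both strands. The fit was tested on simulated data.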

Additional observations from a re-analysis of the deposited data

How the results depend on the processing

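The count of histone genes past the limma threshold, 1, was 2 after median centring, 3 without the dimmest genes, 3 with an intensity trend, 6 with array weights, 0 after quantile normalization, 0 with every row tested, and 0 to 4 when leaving out 1 array (4 without wild-type replicate 1, 1 when replicate 2 of wild-type was dropped, otherwise 0). Cyclic loess also gave 1, but H1f5 in place of H2ac4. Over all genes the 163 calls became 372 with replicate number as a block (pairing), 104 with quantile normalization, 505 without the dimmest genes, 1599 with array weights and 21 to 929 leaving out 1 array, and the block left the histone count at 1. With every row tested 22 of the 35557 rows passed, and 18 of the rows kept for genes. Of the 163 calls 137 were higher in knockout, against 186 of 192 with centring and 149 of 219 with loess. The 2 calls in the 5 function lists became 4 with the block, 1 with quantile normalization, 4 with centring, 1 with loess, 8 without the dimmest genes, 21 with weights, 0 with every row and 0 to 13 leaving out 1 array.

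The histone median of 0.23 was 0.38 with centring (which moves the median of all genes from -0.04 to 0.10), 0.12 with loess, 0.18 with weights and 0.14 to 0.29 leaving out 1 array. With member sets chosen after seeing the data it was 0.32 for somatic genes, 0.32 with the renamed genes added and 0.33 for the brightest. Type medians with centring were 0.092 (H1), 0.62 (H2A), 0.38 (H2B), 0.38 (H3) and 0.48 (H4). With loess they were 0.094 (H2B) and 0.097 (H4), with quantile normalization 0.19 (H4), and without the dimmest genes 0.13 (H1). Leaving out 1 array gave -0.14 to -0.021 (H1), 0.12 to 0.26 (H2B) and 0.30 to 0.46 (H4).

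Signs turned for genes with log2 fold changes from -0.11 (H3c7) to 0.23 (H2bc21, close to the histone median), none past the threshold. With quantile normalization these were H1f2 (-0.13), H1f6 (0.090), H2ac1 (-0.039), H2bc3 (-0.24), H2bu2 (0.031), Flt3 (-0.097), Cd34 (-0.15) and Ptprc (-0.063). With loess they were H1f2 (-0.19), H1f6 (0.11), H2ac1 (-0.072), H2bc21 (-0.031), H2bc3 (-0.28), Flt3 (-0.18), Cd34 (-0.19) and Ptprc (-0.11). With centring they were H1f6 (0.034), H2bc8 (0.14), H3c7 (0.033) and H2bu2 (0.050), and with weights H1f2 (-0.090), H2bc1 (-0.0078) and Flt3 (-0.12). Leaving out 1 array gave both signs for H1f2 (-0.096 to 0.32), H1f3 (-0.15 to 0.11), H2bc1 (-0.029 to 0.12), H2bc3 (-0.066 to 0.065), H2bc8 (-0.10 to 0.074), H3c7 (-0.23 to 0.049), Flt3 (-0.093 to 0.29) and Cd34 (-0.070 to 0.10). The causes were not tested. Collapsing rows does not apply to the several-symbol rows, which were all tested.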
